A study of Mus musculus with 8 samples.

Results

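Keratin genes were followed across 8 arrays of mouse CT26 tumors, as the 64 probes of 48 genes whose name on the array is Krt followed by digits alone, out of 56567 probes with 37058 names. By gene, 6 were keratins of simple epithelia, 19 were keratins of the epidermis and other stratified epithelia, 22 were keratins of hair and hair follicle, and 1, Krt222, was a keratin-like gene outside these classes. Krt6a, Krt6b, Krt33a and Krt33b carry a letter after the digits and were not members. CT26 is a colon carcinoma line of BALB/c mice, and 500000 cells were implanted under the skin of the flank. Mice bearing these tumors were treated for 2 weeks with vehicle, with TP-16 (an antagonist of the prostaglandin E2 receptor EP4, given orally each day at 75 mg/kg), with an antibody that blocks the T-cell receptor PD-1 (50 µg per mouse intraperitoneally, 2 times a week), or with the combination. The hosts of CT26 tumors in the study were BALB/c mice, and its mice were female and 6 to 10 weeks old. TP-16 is also called BY001 in the labels. The whole tumor tissue was taken, and 2 samples per group were measured on one-colour Agilent arrays. Whether a sample was a single tumor or a pool was not given in the sources used here, so p-values measure the spread between these samples only.

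Keratins are the intermediate filament proteins of epithelial cells. A type I keratin, mostly encoded on chromosome 11 of the mouse, pairs with a type II keratin, mostly encoded on chromosome 15, and the pair in use follows the kind of epithelium. Krt8 and Krt18 form the pair of simple epithelia such as the gut lining, where Krt19 and Krt20 join them. Krt5 and Krt14 mark the basal layer of the epidermis, Krt1 and Krt10 its upper layers, and Krt16 and Krt17 hair follicles and stressed or wounded epidermis. By the array annotation, 25 of the 48 member genes lay on chromosome 11, 22 on chromosome 15, and 1 (Krt85) had no position.

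Levels are given as the log2 intensity of a probe minus that of the 75th percentile of its array, so that 0 is the level of that percentile. Probe signals were called well above background by the scanner software on 51.4% to 59.7% of probes per array, the most on vehicle replicate 2, and none was saturated. All arrays lay on 1 slide read in 1 scan, with the vehicle and TP-16 arrays in row 1 and the others in row 2, and with the TP-16 and combination arrays in columns 3 and 4, so that slide position and treatment cannot be told apart. The lowest signal well above background, taken per array and averaged per group, was −3.95 in vehicle, −4.74 in TP-16, −4.11 in anti-PD-1 and −4.77 in combination tumors. Over the 21497 genes tested the median log2 change from vehicle was −0.15 with TP-16, −0.10 with anti-PD-1 and −0.24 with the combination, and over all tested probes the combination median moved from −0.20 to −0.01 under quantile normalization. In these bulk tissues fewer cells of a type and less RNA per cell cannot be told apart.

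Of the 48 keratin genes, 21 had a probe that both arrays of some group measured well above background, and these were tested. These were 5 of the 6 simple epithelial, 10 of the 19 epidermal and 5 of the 22 hair keratins, and Krt222. Among the 27 others, 9 were well above background on no array, another 9 were so on vehicle replicate 2 and no other array, and 3 (Krt1, Krt15 and Krt42) on replicate 2 of vehicle, TP-16 and anti-PD-1 and nowhere else. Of the remaining 6, Krt25 and Krt36 were well above background on anti-PD-1 replicate 1 alone, Krt28 and Krt71 on that array and vehicle replicate 2, Krt82 on vehicle replicate 1 and anti-PD-1 replicate 2, and Krt75 on 1 array each of vehicle, TP-16 and the combination. Krt7, the partner of Krt19 and Krt20 in many glandular epithelia, was among those measured on vehicle replicate 2 alone. The number of keratin genes well above background was 21 and 33 on the vehicle arrays, 18 and 24 with TP-16, 23 and 24 with anti-PD-1, and 18 and 18 with the combination.

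**Figure D1:**
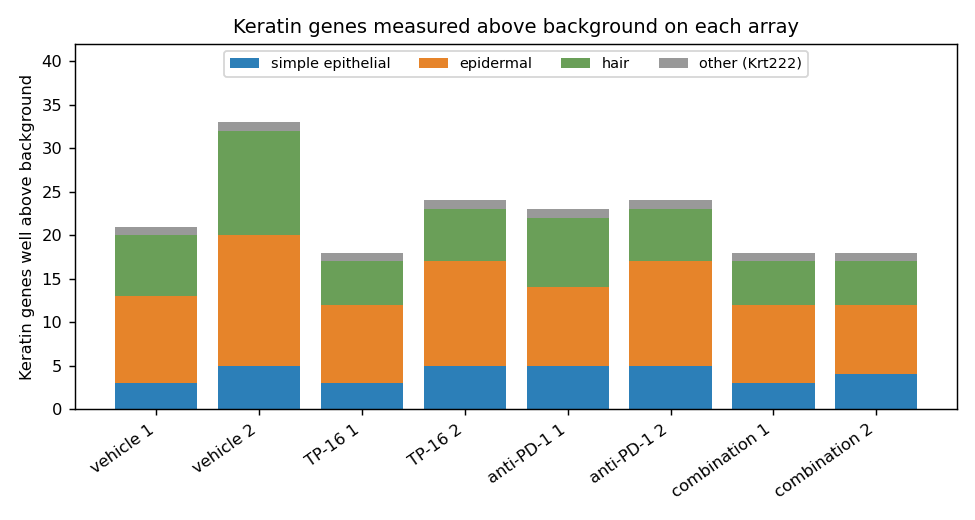
Number of keratin genes (y axis) with a probe well above background on each of the 8 arrays (x axis), stacked by keratin class. Vehicle replicate 2 stands highest with 33 genes, 15 of them epidermal and 12 of hair, and both combination arrays stand at 18.

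Some keratins named in these results are given with the sequence before their start. The 250 bases before the annotated start of Krt8 and Krt18 (the pair lower in the combination), Krt20 (measured at a high level on every array) and Krt5 (high on 2 arrays) are shown 5′ to 3′ on the strand of the gene, taken from RefSeq in its GRCm38.p6 build. Capitals mark matches on either strand to TATAAA (the TATA box), GGGCGG (the GC box), TGANTCA (the AP-1 motif) or CAGGTG (an E-box), none of which overlapped here.
Krt8, chr15:102004343-102004592, minus strand: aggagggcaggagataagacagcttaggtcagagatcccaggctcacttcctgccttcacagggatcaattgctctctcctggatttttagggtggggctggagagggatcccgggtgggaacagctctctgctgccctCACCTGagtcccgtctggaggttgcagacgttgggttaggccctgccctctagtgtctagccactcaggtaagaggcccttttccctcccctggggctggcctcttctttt
Krt18, chr15:102027966-102028215, plus strand: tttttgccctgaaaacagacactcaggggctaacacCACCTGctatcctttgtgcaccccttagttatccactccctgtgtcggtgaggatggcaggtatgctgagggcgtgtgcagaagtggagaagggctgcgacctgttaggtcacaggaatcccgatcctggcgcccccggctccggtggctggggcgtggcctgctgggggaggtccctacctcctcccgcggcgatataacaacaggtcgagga
Krt20, chr11:99438154-99438403, minus strand: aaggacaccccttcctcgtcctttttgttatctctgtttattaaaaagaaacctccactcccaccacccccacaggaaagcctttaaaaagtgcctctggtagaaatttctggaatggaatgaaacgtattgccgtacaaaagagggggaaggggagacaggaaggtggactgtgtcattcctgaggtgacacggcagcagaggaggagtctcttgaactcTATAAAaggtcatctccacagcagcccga
Krt5, chr15:101712906-101713155, minus strand: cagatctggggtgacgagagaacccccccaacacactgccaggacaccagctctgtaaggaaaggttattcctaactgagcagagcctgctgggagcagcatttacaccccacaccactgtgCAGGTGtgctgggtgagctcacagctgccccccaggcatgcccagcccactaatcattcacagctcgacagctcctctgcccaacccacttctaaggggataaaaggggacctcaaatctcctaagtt
Krt8, Krt18 and Krt5 each held 1 E-box match, beginning 111, 214 and 128 bases before the start, and Krt20 held 1 TATA box match 29 bases before it. Of all 32851 windows of this length in the table, 17.2% held the E-box letters, 12.4% the TATA box, 32.7% the GC box and 6.75% the AP-1 motif. A match describes letters in the window and was not linked to any measurement.

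Krt18 and Krt8 were lower in combination tumors than in vehicle tumors. Krt18, the type I keratin of simple epithelia (probe at chr15:101862341-101862400 in mm9), had log2 levels of 3.64 and 3.09 in vehicle, 2.72 and 3.11 in TP-16, 2.95 and 2.81 in anti-PD-1, and 2.29 and 1.66 in combination tumors. Both combination arrays were below all 6 others. TP-16 overlapped both vehicle and anti-PD-1, and both anti-PD-1 arrays were below both vehicle arrays. The log2 change with the combination was −1.39 ± 0.29 (SE, n = 2 per group; 2.63-fold lower; limma, adjusted p = 0.0196). The call did not hold in the methods' own test, and the limma adjusted p was 0.0731 with only the compared groups, 0.0557 without vehicle replicate 1 and 0.105 without combination replicate 2. With TP-16 it was −0.46 (95% interval −1.16 to 0.25) and with anti-PD-1 −0.49 (95% interval −1.20 to 0.22), both without a call. Against the single agents the combination was lower by a log2 difference of −0.94 (limma, adjusted p = 0.159) for TP-16 and −0.90 (limma, adjusted p = 0.131) for anti-PD-1, each short of 2-fold.

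Krt8, the type II partner of Krt18, was measured by 2 probes at chr15:101827214-101827273 and chr15:101827138-101827197 (mm9). The brighter probe read −0.75 and −2.07 in vehicle, −1.92 and −4.11 in TP-16, −3.48 and −2.91 in anti-PD-1, and −3.63 and −4.56 in combination tumors. Both combination arrays were below both anti-PD-1 arrays, which were below both vehicle arrays, while the TP-16 arrays were spread across the other groups. The log2 change with the combination was −2.68 ± 0.82 (SE, n = 2 per group; 6.43-fold lower) with an unadjusted p of 0.0173 and an adjusted p of 0.0525 in limma. The other probe gave −2.88 ± 0.84 (SE; limma, adjusted p = 0.0476), with combination replicate 2 not well above background on it (−5.05). The size differed by sample: without vehicle replicate 1 the change was −2.03 (unadjusted p of 0.0880 in limma) and without combination replicate 2 it was −2.22 (unadjusted p of 0.0919), so the call at the unadjusted threshold was lost in both cases. TP-16 and anti-PD-1 alone gave −1.60 (95% interval −3.62 to 0.41) and −1.78 (95% interval −3.80 to 0.23). With normexp Krt8 was called with both single agents (−1.06 and −1.02), and with only the compared groups it was called with anti-PD-1.

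Krt20, a keratin of differentiated intestinal epithelium, was among the probes far above the 75th percentile on every array. Its log2 level was 5.93 and 6.20 in vehicle, 5.49 and 6.21 in TP-16, 5.71 and 6.52 in anti-PD-1, and 6.33 and 5.79 in combination tumors. All 4 groups overlapped. The change with the combination was −0.00 ± 0.37 (SE), with a 95% interval of −0.93 to 0.92, so a change of almost 2-fold either way was not detectable here.

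Krt19 and Krt23, the remaining tested keratins of simple epithelia, were dim. Krt19 read −4.14 and −3.22 in vehicle, −5.02 and −4.26 in TP-16, −3.40 and −4.04 in anti-PD-1, and −4.64 and −4.19 in combination tumors, and was well above background on 5 arrays. These 5 were both anti-PD-1 arrays and 1 array of each other group. Both TP-16 and both combination arrays were below both vehicle arrays, with log2 changes of −0.96 ± 0.43 (SE; limma, adjusted p = 0.221) and −0.73 ± 0.43 (SE; limma, adjusted p = 0.227). With anti-PD-1 the change was −0.04 (95% interval −1.09 to 1.01). Unscaled intensities of Krt19 overlapped, at 21.1 and 40.6 in vehicle, 16.4 and 28.8 in TP-16 and 24.4 and 40.3 in combination tumors. Krt23 was well above background on 3 arrays, TP-16 replicate 2 (−2.74) and both anti-PD-1 arrays (−3.81 and −2.97), and on no vehicle or combination array. Against the lowest signal well above background, Krt23 was at least 1.46-fold higher in anti-PD-1 than in vehicle tumors (measured means −3.39 and −4.42; limma, adjusted p = 0.599) and at least 2.60-fold higher in anti-PD-1 than in combination tumors (measured means −3.39 and −5.39; limma, adjusted p = 0.220). Neither was called.

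**Figure D2:**
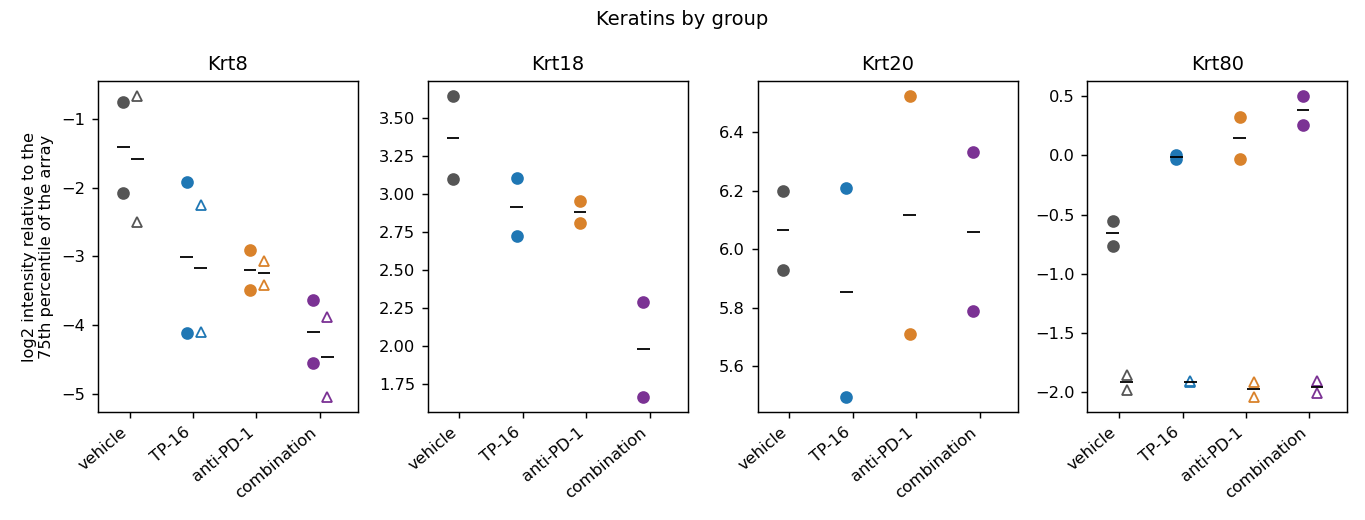
Log2 intensity relative to the 75th percentile of the array (y axes, each with its own scale) for Krt8, Krt18, Krt20 and Krt80 in the 4 groups. Filled circles are the arrays of the brightest probe of a gene, open triangles those of a further tested probe, and short lines are means of 2 arrays. Krt18 falls to 2.29 and 1.66 in combination tumors, the groups of Krt20 overlap, and the 2 probes of Krt80 run differently.

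Other genes of simple and colon epithelium were set beside the pair. In combination tumors 3 of the 10 tested genes of this list were lower and none higher at 2-fold and unadjusted p, where 10.4% of all tested genes were lower and 6.65% higher, and the list's median log2 change was −0.64 beside −0.24 for all tested genes. Cldn4, a tight junction protein, read −1.72 and −3.14 in vehicle tumors and was not well above background on any treated array. It was at least 5.07-fold lower in combination than in vehicle tumors (measured means −5.86 and −2.43; limma, adjusted p = 0.0120). Cdx2, the transcription factor of intestinal identity, read −2.17 and −1.80 in vehicle tumors and was at least 6.90-fold lower in combination tumors (measured means −5.37 and −1.99; limma, adjusted p = 0.0102). With the single agents 2 genes of the list were lower at unadjusted p, where 5.11% of all tested genes were lower with TP-16 and 2.24% with anti-PD-1. These were Cdx2 (log2 changes of −2.78 with TP-16 and −1.96 with anti-PD-1, each group having 1 array well above background) and Cldn4 (at least 4.94-fold and 3.20-fold lower), none of them at adjusted p. Esrp2, a splicing factor of epithelia, was at least 1.48-fold higher with anti-PD-1 than in vehicle tumors, where it was not well above background (measured means −3.39 and −4.56; limma, adjusted p = 0.318). Lgals4, a lectin of the gut epithelium and the brightest of the list, had a log2 change of −0.67 ± 0.12 (SE; limma, adjusted p = 0.0144), short of 2-fold. Cldn7, another tight junction protein, was the remaining one called, at −1.06 ± 0.32 (SE; limma, adjusted p = 0.0505). Cdh1, the epithelial cadherin, had a log2 change of 0.82 ± 0.47 (SE) and Car1, a carbonic anhydrase of colon, one of −0.36 ± 0.20 (SE), neither called.

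Defining genes of colon epithelium were measured in part. Of the 19 on the list, Cdh1, Lgals4, Esrp1, Fabp2 and Car1 were well above background on all 8 arrays, Cldn7 on 7, Cdx2 on 4, Esrp2 and Cdh17 on 3 and Cldn4 on 2. Epcam, Grhl2, Ocln and Tff3 were so on 1 array each, and Vil1, Cdx1, Cldn3, Elf3 and Muc2 on none. Vim, the intermediate filament protein of mesenchymal cells, read 8.09 and 8.10 in vehicle and 7.63 and 7.36 in combination tumors, a log2 change of −0.60 ± 0.13 (SE; limma, adjusted p = 0.0207), short of 2-fold. Markers of other cells moved with the fall of Krt8 and Krt18. The intensities of 14 leukocyte markers, each divided by the 75th percentile of its array, summed to 136 and 161 in vehicle and 197 and 269 in combination tumors, and those of 11 fibroblast markers to 332 and 294 and to 527 and 564. At adjusted p and 2-fold, 7 leukocyte markers were higher and 2 lower, and 4 fibroblast markers were higher and 0 lower, where 5.59% of all tested genes were higher and 8.62% lower. Their part in the keratin result was not tested.

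Several epidermal keratins differed more between the 2 arrays of a group than between groups. Krt14, the basal type I keratin, read −4.04 and −0.35 in vehicle, −4.06 and 3.80 in TP-16, −3.45 and 4.22 in anti-PD-1, and −4.92 and −3.86 in combination tumors. Krt5, its partner, read −3.67 and −1.60 in vehicle, −3.92 and 2.16 in TP-16, −3.30 and 2.08 in anti-PD-1, and −3.94 and −4.54 in combination tumors. Replicate 2 of TP-16 and replicate 2 of anti-PD-1 were far above the rest for both genes, with vehicle replicate 2 next.

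The same arrays were high for several, but not all, keratins of other epidermal layers and of the follicle. Krt16 read −1.73 and −0.67 in vehicle, −2.22 and 2.30 in TP-16, −2.09 and 2.97 in anti-PD-1, and −2.37 and −2.24 in combination tumors. Krt17 read −3.93 and −1.84 in vehicle, −3.73 and 2.02 in TP-16, −2.66 and 2.51 in anti-PD-1, and −3.68 and −3.81 in combination tumors. Krt79, a keratin of the follicle opening and sebaceous duct, was at 2.08 and 1.09 on the 2 high arrays and between −1.77 and −0.90 on the other 6. Krt10, the upper-layer keratin, read 3.21 on TP-16 replicate 2 and 2.37 on anti-PD-1 replicate 2, against 0.87 to 1.84 elsewhere. Krt1, the partner of Krt10, read 0.42 and −0.34 on these 2 arrays and −3.05 on vehicle replicate 2, and was not above background on the other 5. For Krt14 replicate 2 exceeded replicate 1 by 232-fold with TP-16, and for Krt79 by 9.82-fold. Krt2, Krt9, Krt12 and Krt80, the other tested epidermal keratins, did not follow this pattern. They read −4.42, −4.13, −7.19 and 0.01 on TP-16 replicate 2. On anti-PD-1 replicate 2 they read −3.66, −4.40, −4.18 and 0.33.

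**Figure D3:**
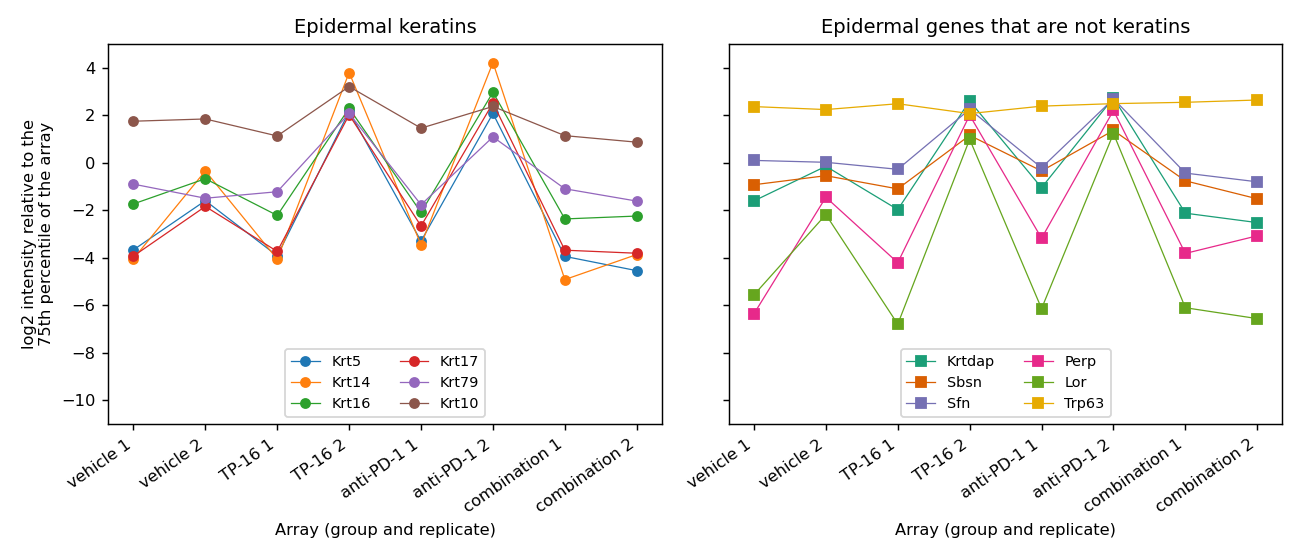
Log2 intensity relative to the 75th percentile of the array (y axis) on the 8 arrays (x axis) for 6 epidermal keratins (left) and 6 epidermal genes that are not keratins (right). Lines only join the points of 1 gene. TP-16 replicate 2 and anti-PD-1 replicate 2 stand above the other arrays for every gene shown but Trp63, and vehicle replicate 2 comes next for Krt5, Krt14, Krt16 and Krt17.

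Several genes of the epidermis other than keratins were high on the same arrays. Of 17 such markers on the array, 15 were well above background on TP-16 replicate 2 and 14 on anti-PD-1 replicate 2, against 8 and 11 on the vehicle arrays and 9 on each of the other 4. Their intensities, relative to the 75th percentile of the array, summed to 28.2 and 34.3 on the 2 high arrays, 11.1 and 12.4 on the vehicle arrays, 10.1 on TP-16 replicate 1, 9.88 on anti-PD-1 replicate 1, and 9.52 and 9.05 on the combination arrays. Ivl, which encodes involucrin, was well above background on no array, and Trp63, a regulator of basal epidermis, lay between 2.07 and 2.64 on all 8. Cdsn, Col17a1, Dsg3 and Dsc1 did not follow the pattern on TP-16 replicate 2 either, with 1.42, −3.29, −6.93 and −4.67 there against 1.79, −2.59, −3.75 and −3.22 on vehicle replicate 2. Krtdap, a protein of differentiating keratinocytes, read 2.60 and 2.74 on the 2 high arrays and between −2.52 and −0.15 elsewhere. Of 31 cornified envelope genes, the building blocks of the skin barrier, 26 and 27 were well above background on the 2 high arrays and 7 to 15 on the others. Of 10 markers of the sebaceous gland, a part of skin, 8 and 6 were well above background on the 2 high arrays and 7 on vehicle replicate 2, against 4 on each of the other 5. Their median log2 level was −2.97 and −3.34 on the 2 high arrays and −3.25 on vehicle replicate 2, and it lay between −6.01 and −5.43 elsewhere. Elovl4, a fatty acid elongase, read −0.32 and −1.13 on the 2 high arrays, while Scd3, a fatty acid desaturase, was at −2.72 on TP-16 replicate 2, its lowest of the 8, and at −0.03 on anti-PD-1 replicate 2. Awat2, a wax ester synthase, fell with the combination by 1.69 ± 0.34 (SE; limma, adjusted p = 0.0186), the only call among the 4 tested, where 8.62% of all tested genes fell at adjusted p. The summed intensity of all 10 lay between 4.81 and 6.70 on the 8 arrays, and Soat1, which carried most of the sum, was at log2 levels of 1.77 to 2.30. That of 18 skeletal muscle markers lay between 35.8 and 129, and that of 14 adipose tissue markers between 25.3 and 51.0. With the combination 1 muscle marker rose at adjusted p (Ttn, titin, by 1.64 ± 0.31, SE; limma, adjusted p = 0.0157) and 1 adipose marker (Lpl, lipoprotein lipase, by 3.84 ± 0.50, SE; limma, adjusted p = 0.0102). They were 1 of 18 and 1 of 12 tested, where 5.59% of all tested genes rose. At unadjusted p 4 muscle markers and 1 adipose marker rose, where 6.65% of all tested genes rose. The part of skin tissue in the epidermal keratin levels was not tested.

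Genes other than keratins shared the difference between replicates. Of the 19922 genes with a probe well above background on replicate 2 of both TP-16 and anti-PD-1, 31 were at least 8-fold higher there than on replicate 1 in both groups, with replicate 1 taken no lower than the lowest signal well above background of its array. They included Krt1, Krt5, Krt14, Krt16 and Krt17, the keratins Krt6a and Krt6b, and Lor, Pkp1, Stfa1, Stfa3, Perp, Ly6d, Aqp3, Krtdap, Sprr1a, Sprr1b and Asprv1. In the other direction, 0 of the 19346 genes measured on both replicate 1 arrays were at least 8-fold higher on these. Genes entered each count through the arrays on which they were high. These counts were made after the pattern had been seen and describe these 4 arrays.

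None of Krt5, Krt10, Krt14, Krt16, Krt17 and Krt79 was called in any comparison in the fit without a replicate block. For Krt14 the log2 change with TP-16 was 2.06 ± 3.40 (SE), with anti-PD-1 2.58 ± 3.40 (SE) and with the combination −2.20 ± 3.40 (SE), with unadjusted p of 0.567, 0.478 and 0.543 in limma. The median change of the 10 tested epidermal keratins was 0.94 with TP-16 and 1.25 with anti-PD-1, and it turned to −0.93 and −0.45 when replicate 2 of both groups was left out (1 array then stood for each of these groups, taken to vary like the others). The median change between combination and TP-16 tumors was −1.47 with all arrays and −0.13 without those 2, and between combination and anti-PD-1 tumors it was −1.20 and −0.92. For Krt14 the difference from TP-16 went from −4.26 to −0.33 and that from anti-PD-1 from −4.77 to −0.94. With the combination against vehicle the median was −0.83 either way, since neither group lost an array.

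**Figure D4:**
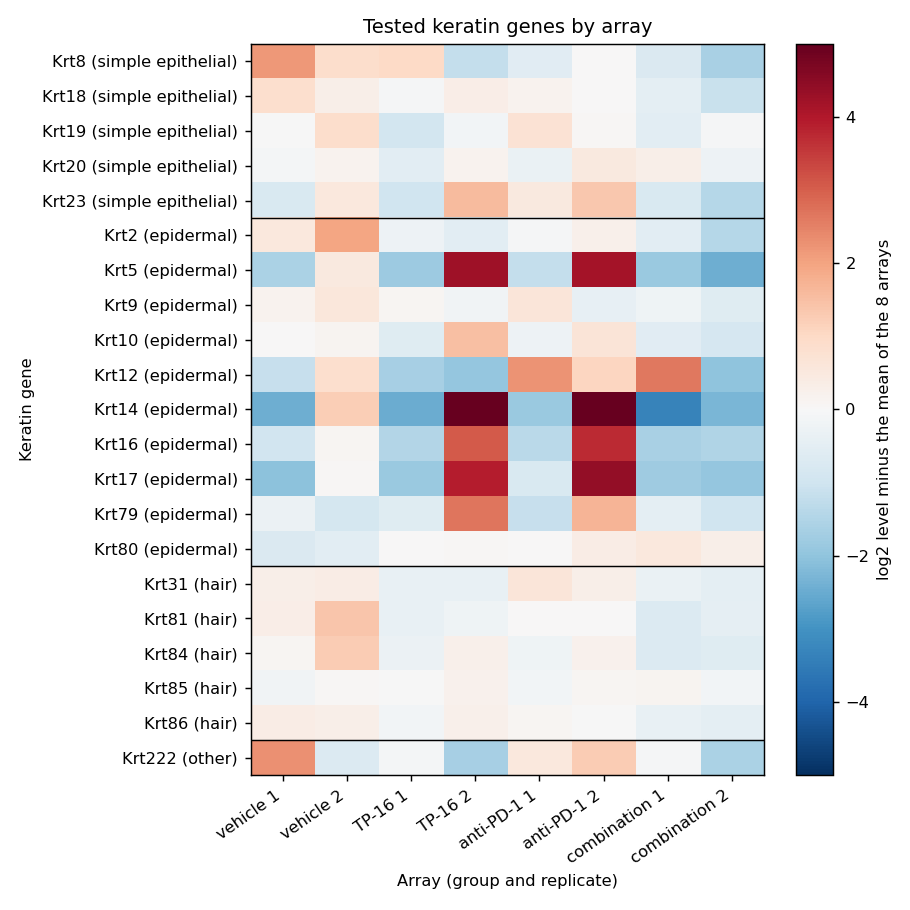
Log2 level of each tested keratin gene minus its mean over the 8 arrays (colour, red above and blue below the mean), with genes in rows by class and arrays in columns. Krt5, Krt14, Krt16, Krt17 and Krt79 are high on TP-16 replicate 2 and anti-PD-1 replicate 2, while Krt20 and Krt85 vary little.

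Krt80, a keratin of many epithelia that appears late in differentiation, was higher on every treated array by its brightest probe. That probe (chr15:101178889-101178948 in mm9) read −0.76 and −0.55 in vehicle, −0.03 and 0.01 in TP-16, −0.03 and 0.33 in anti-PD-1, and 0.50 and 0.26 in combination tumors. Each treated array lay above both vehicle arrays. The log2 change with the combination was 1.04 ± 0.17 (SE, n = 2 per group; limma, adjusted p = 0.0120), and it was 0.65 with TP-16 (limma, adjusted p = 0.105) and 0.81 with anti-PD-1 (limma, adjusted p = 0.241), both short of 2-fold. A further probe of Krt80, at chr15:101180014-101180073, gave −0.04 with the combination (95% interval −0.31 to 0.23) and lay between −2.04 and −1.85 on all arrays. The 2 probes disagreed, and the brighter matched a predicted RefSeq transcript and the other a curated one in the array annotation. With normexp background correction the change was 0.87, and without vehicle replicate 1 or combination replicate 1 it was 0.93 and 0.92, all under 2-fold.

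Krt2, Krt81 and Krt84 were lower in combination tumors, close to the detection limit. Krt2, a keratin of upper epidermal layers, read −3.37 and −1.94 in vehicle, −4.16 and −4.42 in TP-16, −3.96 and −3.66 in anti-PD-1, and −4.41 and −5.32 in combination tumors. Its log2 change was −1.63 ± 0.52 (SE; unadjusted p of 0.0203; limma, adjusted p = 0.133) with TP-16 and −2.21 ± 0.52 (SE; limma, adjusted p = 0.0266) with the combination. In each comparison both treated arrays were below both vehicle arrays, and combination replicate 2 was not well above background. Its unscaled intensity was 98.5 on vehicle replicate 2 and 18.4 to 35.8 on the other 7 arrays, and without vehicle replicate 2 the combination change was −1.49. With TP-16 the change was under 2-fold with normexp (−0.94) and without vehicle replicate 2 (−0.91).

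Krt81, a hair cortex keratin, read −3.39 and −2.34 in vehicle, −4.09 and −3.94 in TP-16, −3.69 and −3.69 in anti-PD-1, and −4.38 and −4.15 in combination tumors. Its change was −1.15 ± 0.33 (SE; unadjusted p of 0.0139; limma, adjusted p = 0.117) with TP-16 and −1.40 ± 0.33 (SE; limma, adjusted p = 0.0276) with the combination. Krt84, a keratin of hard epithelia such as nail and tongue, read −4.02 and −2.88 in vehicle and −4.82 and −4.75 in combination tumors, a change of −1.33 ± 0.40 (SE; unadjusted p of 0.0165; limma, adjusted p = 0.0509), with 1 of the 2 combination arrays well above background. The unscaled intensity of Krt81 was 74.9 on vehicle replicate 2 and 29.2 to 41.3 on the other 7 arrays, and that of Krt84 was 51.5 and 19.4 to 37.2. Without vehicle replicate 2 the combination changes were −0.87 for Krt81 and −0.76 for Krt84, below 2-fold, and with TP-16 that of Krt81 was −0.62. Under quantile normalization Krt84 had −0.75 with the combination and Krt81 −0.73 with TP-16, also below 2-fold. The lowest signal well above background was itself lower by 0.82 on the log2 scale in combination than in vehicle tumors, and its part in these results was not tested.

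The Krt81 probe cannot be assigned to 1 gene with certainty. In the array annotation it shares accessions with the probes of Krt83 and Krt86, and the RefSeq table gives Krt87 for the accession of the Krt83 probe. A run of 24 bases was common to both 60-base probes, at bases 6 to 29 of Krt81 and 1 to 24 of Krt83, shown because signal of either gene may reach either probe.
Krt81 and Krt83 probes, shared run: taccaggaggtgatgaactccaag
Krt83 was well above background on vehicle replicate 2 alone. Krt86, with a probe of its own, had a log2 change of −0.75 ± 0.16 (SE; limma, adjusted p = 0.0201) with the combination, and Krt31, a hair cortex type I keratin, one of −0.73 ± 0.14 (SE; limma, adjusted p = 0.0179), both short of 2-fold. Unscaled, Krt86 was at 85.9 and 84.3 in vehicle and 85.5 and 95.6 in combination tumors. Unscaled Krt31 was at 78.2 and 83.4 in vehicle and 82.8 and 91.1 in combination tumors. Both falls appeared only after scaling to the 75th percentile, which was 371 and 378 in vehicle and 607 and 734 in combination tumors.

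**Figure D5:**
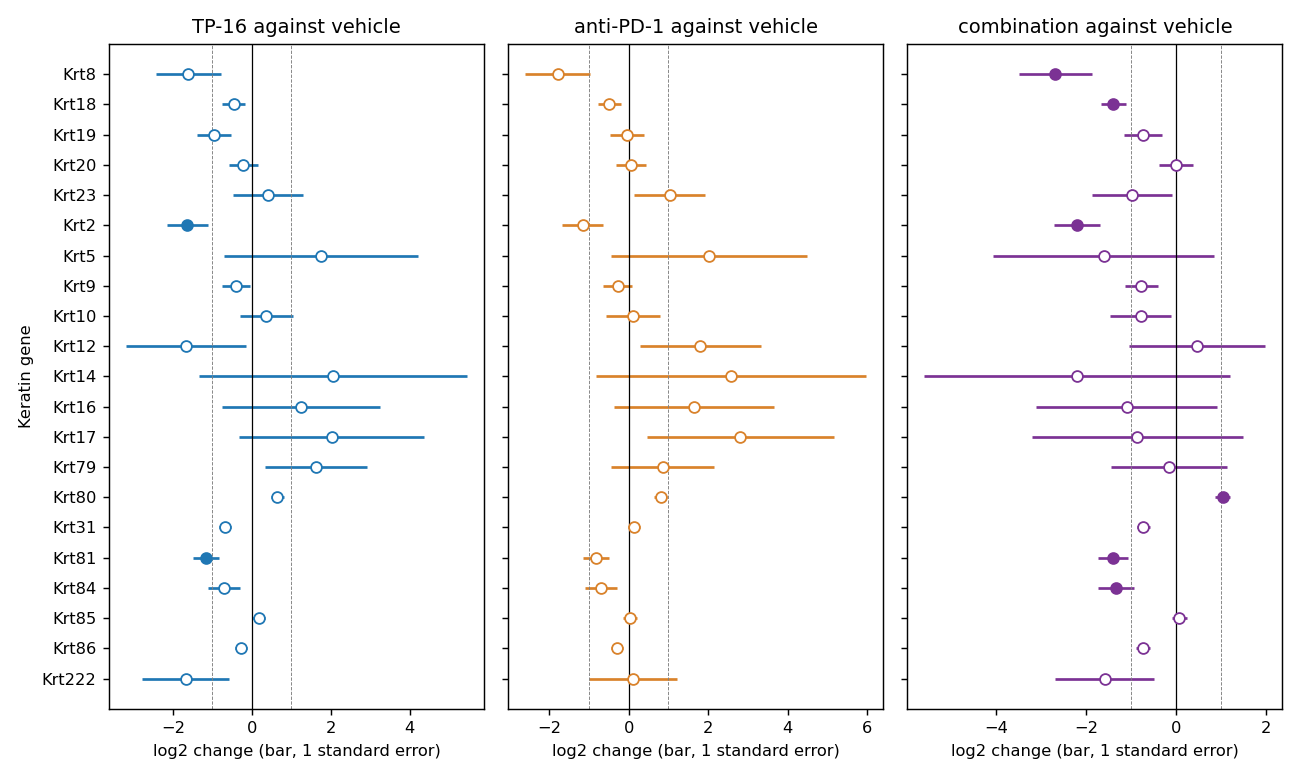
Log2 change from vehicle (x axes) of the 21 tested keratin genes (y axis) after each of the 3 treatments (panels), by the brightest probe of each. Bars are 1 standard error, dashed lines mark 2-fold, and filled points passed 2-fold and unadjusted p. The filled points are Krt2 and Krt81 with TP-16, and Krt8, Krt18, Krt2, Krt80, Krt81 and Krt84 with the combination, while Krt5, Krt14, Krt16 and Krt17 have the widest bars.

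Counted over the 21 tested keratin genes at 2-fold and an unadjusted p not above 0.05, 2 fell with TP-16 (Krt2 and Krt81) and 0 rose, where 5.11% of all 21497 tested genes fell. At any fold 4 keratins had an unadjusted p of at most 0.05 with TP-16, beside 27.9% of all tested genes. With anti-PD-1 0 were called, where 4.14% of all tested genes were called in either direction, and at any fold 2 keratins (Krt80 and Krt81) had an unadjusted p of at most 0.05, beside 15% of all tested genes. With the combination 5 fell and 1 rose, where 10.4% of all tested genes fell and 6.65% rose. At any fold 8 keratins had an unadjusted p of at most 0.05 with the combination, beside 50% of all tested genes. At an adjusted p of at most 0.05, 3 fell (Krt2, Krt18 and Krt81) and 1 rose (Krt80), where 8.62% of all tested genes fell and 5.59% rose. Without combination replicate 2 none of the 21 passed the adjusted threshold, while 5 passed the unadjusted one. The median change of the 21 with the combination was −0.86, beside −0.24 for all tested genes, with 18 of the 21 below 0. These comparisons share the vehicle arrays, and the keratins' shares were not tested against those of all genes.

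Between the combination and single agents 0 keratin genes were called. Over all tested genes 4.89% were called against TP-16 and 4.72% against anti-PD-1. At any fold, 2 keratins (Krt18 and Krt86) had an unadjusted p of at most 0.05 in limma against TP-16, beside 23.8% of all tested genes, and 3 (Krt18, Krt31 and Krt86) did against anti-PD-1, beside 29.2%. Of the 21, 16 were lower in combination than in TP-16 tumors and 19 were lower than in anti-PD-1 tumors. The median log2 change over all tested genes was also below 0, at −0.09 against TP-16 and −0.14 against anti-PD-1. The keratins' share of lower genes was not tested against that of all genes. The departure from additivity, which asks whether the combination differed from the sum of both agents, was called for 0 keratins, where 3.28% of all tested genes were called. At any fold 0 keratins had an unadjusted p of at most 0.05 in limma, beside 7% of all tested genes. The smallest unadjusted p among them was 0.106.

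The other tested keratins without a call were Krt85, Krt222, Krt9 and Krt12. Krt85, a hair matrix keratin, lay between 2.81 and 3.21 on all 8 arrays, by a probe for which the array annotation gave no genome position. Krt222 read 4.67 and 1.70 in vehicle, 2.29 and 0.75 in TP-16, 2.92 and 3.69 in anti-PD-1, and 2.36 and 0.84 in combination tumors, and the anti-PD-1 arrays were above those of TP-16 and the combination, with no call. Krt9, the keratin of footpad skin, lay between −4.57 and −3.37. Krt12, the keratin of cornea, was measured in both anti-PD-1 arrays (−2.996 and −4.18) and combination replicate 1 (−2.61), and was at least 1.28-fold higher in anti-PD-1 than in vehicle tumors (measured means −3.59 and −5.39; limma, adjusted p = 0.589). A further Krt12 probe, well above background on vehicle replicate 1 (−3.21) and anti-PD-1 replicate 2 (−2.46), was not tested. Krt71, a keratin of the inner root sheath of the hair follicle, read −1.99 on anti-PD-1 replicate 1, where Krt5 and Krt14 were low, and −3.69 on vehicle replicate 2, and it was not well above background elsewhere.

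Genes that work with keratins were read by list, mainly for the combination. With TP-16, Dsg2 (a desmosomal cadherin) and Ina fell and Nefh rose at 2-fold and unadjusted p. Over all tested genes 5.11% fell and 1.56% rose. Dsg2 read −4.64 and −6.58 on the TP-16 arrays, below their lowest signals well above background (−4.60 and −4.87). With anti-PD-1, Casp14 of the cornified envelope rose, where 1.9% of all tested genes rose. None of these passed at adjusted p. With the combination 10.4% of all tested genes fell and 6.65% rose at 2-fold and unadjusted p, and 8.62% and 5.59% at adjusted p, and no list was tested against these shares. Of 13 tested genes of the desmosome and hemidesmosome, which anchor keratin filaments, 1 fell and 0 rose with the combination at unadjusted p, with a median log2 change of −0.17. That gene was Ppl, which encodes periplakin, at −1.06 ± 0.40 (SE; limma, adjusted p = 0.0885). The brightest were Plec (0.32 ± 0.18, SE), Itga6 (−0.17 ± 0.15, SE) and Itgb4 (0.26 ± 0.24, SE), none called. Dsp and Pkp1, which link keratins to desmosomes, were well above background on TP-16 replicate 2 and anti-PD-1 replicate 2 and no other array. Of 10 tested cornified envelope genes 1 fell, Cdsn (corneodesmosin), with a log2 change of −1.57 ± 0.39 (SE; limma, adjusted p = 0.0315), and Sbsn and Krtdap were not called.

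Of 11 tested hair follicle genes that are not keratins, 2 rose and 1 fell with the combination at adjusted p. Gata3, a factor of the inner root sheath and of lymphocytes, rose by 1.30 ± 0.31 (SE; limma, adjusted p = 0.0275). Lhx2, a follicle stem cell factor, was at least 1.43-fold higher than in vehicle tumors, where it was below the limit (measured means −3.43 and −4.88; limma, adjusted p = 0.0186). Tyr, the tyrosinase of pigment cells, fell by 1.23 ± 0.26 (SE; limma, adjusted p = 0.0210). Trps1 and Dlx3, the 2 others among the brightest, had log2 changes of −0.06 and −0.50.

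Of 13 tested intermediate filament genes that are not keratins, 1 rose and 0 fell at adjusted p, and 1 more, the neuronal filament gene Ina, fell at unadjusted p (−1.08 ± 0.35, SE; limma, adjusted p = 0.0609). The gene that rose was Nefh, a neurofilament subunit, at least 1.07-fold higher than in vehicle tumors, where it was below the limit (measured means −3.85 and −6.26; limma, adjusted p = 0.0123). Lmna and Lmnb1, the nuclear lamins, had log2 changes of −0.47 ± 0.13 (SE; limma, adjusted p = 0.0439) and 0.72 ± 0.13 (SE; limma, adjusted p = 0.0154), both short of 2-fold.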

How the data were processed

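Groups and replicate numbers came from the labels, 2 arrays per group. The authors deposited scanner intensities, background-subtracted and detrended by Agilent Feature Extraction 10.7.1.1 per the labels, and log2 values made in GeneSpring according to the methods. Sorted columns of these log2 values differed by at most 0.00115, and they served as an alternative. From the intensities, control spots, 959 outlier-marked spots and 38 probes were left out, spots of a probe were averaged, and log2 values were centred on the 75th percentile of each array. The 31912 probes that both arrays of some group measured well above background entered 1 limma 3.58.1 fit with 4 group means (R 4.3.3), with Benjamini-Hochberg adjustment over all of them. A gene was represented by its brightest tested probe. The number of arrays limits the precision. Calls needed a fold of 2 with p or adjusted p of at most 0.05. Where all arrays of a group were below background, the fold was bounded by the lowest signal well above background.

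Every keratin gene was accounted for. Tests are given for the simple epithelial keratins, for keratins called in any comparison, and from each gene list for the 3 brightest genes and up to 4 called at adjusted p. Lists of cell type markers are given by counts and summed levels, with tests of single genes, and some keratins that were not called by their range. Krt5, Krt14, Krt16, Krt17, Krt31, Krt79, Krt85, Krt86 and Krt222, Ppl, Cldn7, Ina, Esrp2, Dsg2, Casp14 and single markers were added after their values were seen. One list, of regulators of epithelial and mesenchymal state, is not reported here. The members and lists were chosen with earlier results of these data known. Positions of probes are mm9, of the array annotation. RefSeq symbols (GRCm38.p6) were found by accession for 54 of the 64 keratin probes. Alternatives were quantile normalization, normexp with an offset of 50, other filters, a replicate block, the deposited log2 values, other fits, the methods' t-test and leaving out arrays. The fit was run on simulated data in which 200 of 31912 probes were changed by a log2 of 3. It found 159 of these at adjusted p, with 6 false calls. The simulated noise was independent between probes and arrays, so it does not cover shifts shared by many genes of 1 array. Software included statmod 1.5.0, Python 3.11.15 and matplotlib 3.10.9.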

Additional observations from a re-analysis of the deposited data

How the results depend on the processing

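Keratin counts in this section are given without the share of all genes called under the same setting, which changes with the setting too. Over all 31912 tested probes, calls at 2-fold and unadjusted p with the combination were 4879 in the main fit. They were 4470 with quantile normalization and 2662 with normexp. With the combination, 6 keratin genes were called at unadjusted p. The count was 3 with normexp, 11 without a filter on dim probes and 1 by the methods' t-test, and 4 to 6 with 1 array left out. At adjusted p the 4 calls became 2 without the filter, 0 when only the compared groups were fitted, 0 by the methods' t-test, and 0 to 5 with 1 array left out. They were 0 without combination replicate 2, and 2 without vehicle replicate 2, combination replicate 1 or either anti-PD-1 replicate. With TP-16, against 2 calls (Krt2 and Krt81), the count was 1 with quantile normalization, the deposited values or only the compared groups (Krt2), 1 with probes above background on all arrays (Krt81) and 1 with normexp (Krt8). It was 4 without the filter and 0 by the methods' t-test. With 1 array left out they ranged from 1 (vehicle replicate 2) to 4 (vehicle replicate 1). At adjusted p 1 was called without vehicle replicate 1 against 0 with all. With anti-PD-1, against 0, it was 1 with normexp or only the compared groups (Krt8 in both), 1 without the filter (Krt72), and 0 to 3 (without vehicle replicate 1) with 1 array left out. Against TP-16 the range was 0 to 6 (without TP-16 replicate 1). Against anti-PD-1 the count was 1 with normexp, also at adjusted p, 1 without the filter, 3 with only the compared groups, and 0 to 2 with 1 array left out. Additivity gave 1 with quantile normalization and 1 with the deposited values, and 0 to 5 (without TP-16 replicate 1).

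Chosen after seeing the data, leaving out replicate 2 of both TP-16 and anti-PD-1 gave 1 call with TP-16 (Krt19), 1 with anti-PD-1 (Krt8), 1 against TP-16 (Krt8) and 2 against anti-PD-1 (Krt9 and Krt31), and with the combination 6 at unadjusted and 0 at adjusted p. The labels do not say whether equal replicate numbers pair the samples. Correlations of same-numbered deviations lay between −0.19 and 0.29, which does not settle it. With the number as a block, 1 keratin was called with anti-PD-1 (Krt8), 2 against anti-PD-1 (Krt14 and Krt23) and 2 for additivity (Krt14 and Krt17), and at adjusted p 6 with the combination. No other count of calls changed under the block.

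Some uncalled changes turned sign. Krt19 with anti-PD-1 was 0.36 under quantile normalization, 0.36 in the deposited values and 0.28 without replicate 2 of both groups, against −0.041, and −0.50 to 0.42 with 1 array left out. Krt20 with TP-16 was 0.00038 and 0.0027 under quantile normalization and in the deposited values and −0.57 to 0.14 with 1 array left out. With anti-PD-1 it was −0.36 without those 2 arrays and −0.36 to 0.46 with 1 left out. With the combination it was 0.44, 0.062 and 0.45 under quantile normalization, normexp and the deposited values, and −0.28 to 0.27 with 1 array left out. Krt23 with TP-16 was −0.13 with normexp and −0.87 without those 2 arrays, and −0.87 to 1.68 with 1 left out. It was well above background on no vehicle array and not on TP-16 replicate 1, so these signs rest on readings at background. Krt80, called with the combination by its brightest probe, was −0.040 by its further probe. The cause of these differences was not tested.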
